A study of Rattus norvegicus with 26 samples.

Results

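The features described here are 161 short annotated features of the rat nuclear genome, out of 32552 in the deposited counts. They were chosen by 3 conditions: a summed exon length under 200 nt, a place outside the mitochondrial genome, and at least 10 raw counts in at least 4 of the 16 libraries made before transplantation. Of 5359 short nuclear features, 5170 stayed under that count and 28 that passed it were left out because they lie in 1 stretch of chromosome 6. The count rule used the levels before transplantation, so differences among those libraries are given as description, with no p for a feature. At the edge of the rule, the fourth-highest count was 10 in 12 features and 11 in 6, against 9 in 11 features and 8 in 17 that were not taken.

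Many short genes of vertebrates make RNAs that are never translated. Small nucleolar RNAs often lie in introns of longer genes, are cut out of the spliced intron and guide chemical modification of ribosomal and spliceosomal RNA. MicroRNA precursors fold into hairpins that are processed into regulators of messenger RNA, and small nuclear RNAs are parts of the spliceosome. The files give positions and identifiers but no gene type, so whether each feature is noncoding could not be checked and no feature is put into one of these classes. None of the identifiers could be paired with a symbol in the reference tables used here (0 of 32552 against 47357 genes), 0 of the 161 matched a microRNA entry, and no sequence is printed.

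RNA was sequenced from rat liver in 26 libraries of 6 groups. Before transplantation there were 4 libraries of adult hepatocytes and 4 each of fetal hepatocytes sorted as LAP+, LAP+/OC2+ and LAP+/OC2-, markers that the labels do not spell out. After transplantation, laser-captured tissue came from fetal-derived colonies and from the adult host liver around them, 5 libraries each, from animals 242, 243, 246, 248 and 249. Strain, sex, age, genotype and the time after transplantation are not given in the labels, and in captured tissue fewer cells of a type and less RNA per cell cannot be told apart. Nothing in the labels ties equal replicate numbers before transplantation to 1 animal, so the spread between those libraries may in part be technical.

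Library totals ran from 7871347 to 16874438 counts. The LAP+/OC2+ libraries stood apart: mitochondrial features took 38.9% to 78.6% of their counts, against 4.11% to 10.3% in the other libraries before transplantation, and left 1917734 to 5045098 nuclear counts. There, 10 counts stand for 1.98 to 5.21 CPM of nuclear counts, against 0.623 to 0.764 in the other 3 groups. CPM are counts brought to a common library size, here from the nuclear counts of each library without further scaling. The levels of features in CPM use scaled library sizes that include mitochondrial counts, so they cannot be set against these values. Features on the Y chromosome summed to 57 counts in adult library 2 and to between 1605 and 2107 in the other adult libraries. Hepatocyte and other cell type markers could not be checked because no identifier could be named.

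The 161 features were 49 to 195 nt long, with a median of 103 nt. A single exon made up 150 of them, and 11 had 2 or 3 exons, which is uncommon among the short RNA classes named above. Most had no longer feature spanning them on their strand (97), while 63 sat within an intron of a longer feature on the same strand and 1 overlapped an exon of one. Of the 97, 13 were spanned by a longer feature on the other strand. The 64 features spanned on their own strand shared 52 spanning genes. Members were found on 20 chromosomes, with 29 on chromosome 10, 22 on chromosome 1 and 15 on chromosome 8. In 6 places, 3 or more lay within 50000 nt of each other, and these clusters held 30 of the 161.

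A pair of features held most of the counts, each in its own groups. Summed over all 161, the share of nuclear counts was 0.118% ± 0.042 (SD, n = 4) in adult hepatocytes, 0.401% ± 0.028 (SD, n = 4) in LAP+ cells, 0.373% ± 0.011 (SD, n = 4) in LAP+/OC2- cells and 0.178% ± 0.045 (SD, n = 4) in LAP+/OC2+ cells. One feature on chromosome 1 made up 84.0% ± 1.15 (SD, n = 4) of that sum in LAP+ cells and 84.2% ± 1.40 (SD, n = 4) in LAP+/OC2- cells, but 2.03% ± 1.04 (SD, n = 4) in adult cells. A feature on chromosome 8 made up 64.4% ± 16.9 (SD, n = 4) of the sum in adult cells and had no count in LAP+ cells. Without both, the order of the groups changed: the other 159 features took 0.0349% ± 0.0031 (SD, n = 4) in adult, 0.0642% ± 0.0082 (SD, n = 4) in LAP+, 0.0579% ± 0.0042 (SD, n = 4) in LAP+/OC2- and 0.131% ± 0.0086 (SD, n = 4) in LAP+/OC2+ cells. The 159 include 19 that met the count rule through LAP+/OC2+ libraries alone. Without these too, the other 140 took 0.103% ± 0.0081 (SD, n = 4) in LAP+/OC2+ cells, and each LAP+/OC2+ library, at 0.0981% or more, lay above each other library before transplantation, at 0.0758% or less. The count rule used these libraries, so the order is a description.

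**Figure D1:**
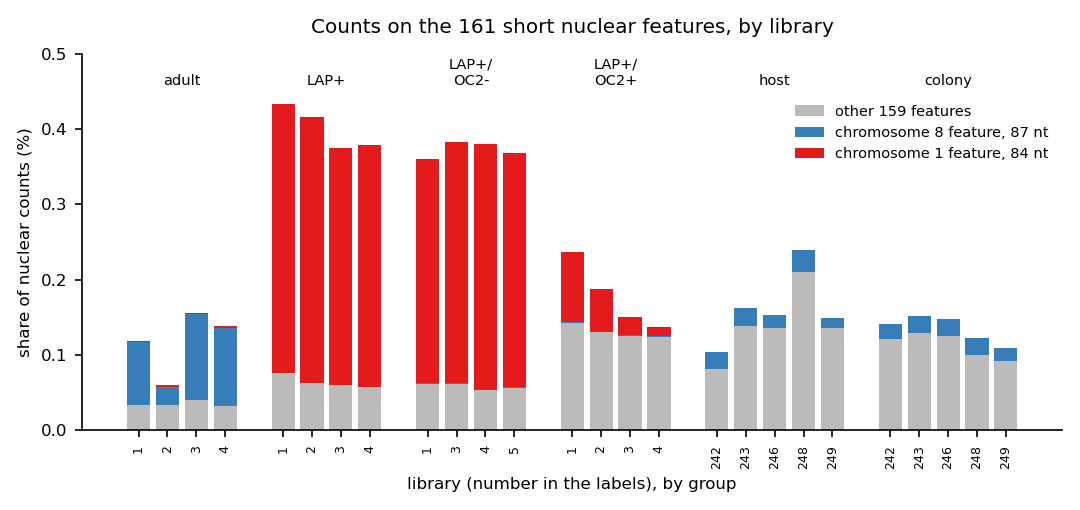
Summed counts of the 161 short nuclear features as a percentage of nuclear counts (vertical axis) in each library (horizontal axis, grouped), stacked into the chromosome 1 feature of 84 nt, the chromosome 8 feature of 87 nt and the other 159. The chromosome 1 feature fills most of each LAP+ and LAP+/OC2- bar, the chromosome 8 feature most of the bar in 3 of 4 adult libraries, and the other 159 are highest before transplantation in LAP+/OC2+ cells.

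The chromosome 1 feature lies at chr1:215745981-215746064 on the minus strand (ENSRNOG00000040350, 84 nt, 1 exon, no spanning gene). Its level, in CPM with library sizes scaled within the stage, was 21.5, 20.6, 20.7 and 18.1 in the 4 adult libraries. In the 4 LAP+ libraries it was 2707, 2327, 2442 and 2321 CPM. The LAP+/OC2- libraries held 2038, 2336, 2686 and 2467 CPM, while the LAP+/OC2+ libraries held 458, 312, 130 and 70.6 CPM. The groups LAP+ and adult were thus far apart, with a fitted log2 difference of 6.92 (SE 0.48), and LAP+/OC2+ lay below LAP+/OC2- by a log2 difference of -3.30 (SE 0.41) without overlap. Per length it was the highest of the 161 in each of the 3 fetal groups, by group mean, but not in adult cells. In captured tissue it was all but absent, at 0 to 0.637 CPM in host liver and 0 to 1.92 CPM in colonies.

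The chromosome 8 feature lies at chr8:41701850-41702599 on the minus strand (ENSRNOG00000047843, 2 exons that sum to 87 nt, no spanning gene) and had the reverse pattern. Adult libraries held 814, 228, 1097 and 1015 CPM, the lowest being library 2, the one with few Y-linked counts. All 4 LAP+ libraries were at 0, so that the adult level was at least 3847-fold higher when 3 counts per LAP+ library are taken as the limit. LAP+/OC2+ libraries held 0.949 to 7.22 CPM and LAP+/OC2- libraries 4.44 to 7.27 CPM, which overlapped. After transplantation it was well detected in both tissues, at 141 to 331 CPM in host liver and 147 to 229 CPM in colonies. Colony and host did not pass the test (log2 difference -0.17, SE 0.13, edgeR adjusted p = 0.44, higher in colony in 2 of 5 animals).

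LAP+ cells were set against adult hepatocytes feature by feature. Of the 154 that passed the filter on low counts, edgeR called 82 higher and 8 lower in LAP+ cells (adjusted p under 0.05). Over all 13818 features tested, 60.3% were called, 31.7% higher and 28.5% lower. The count rule chose the members in these same libraries, so nothing is read from their share. The median log2 difference of the members was 1.77, against 0.06 over all features, and 1.70 over the 148 left when those without a count in a group are put at the bound that 3 counts allow or, under that limit in both groups, left out. Of the 154, 77 lay higher in every LAP+ library than in every adult library (29.2% of all features did) and 8 lower in every one (27.0% of all). Over the 4 groups before transplantation, 108 of the 161 had their lowest mean in adult cells and 81 their highest in LAP+/OC2+ cells. The 81 hold 19 that met the count rule through LAP+/OC2+ libraries alone and had to be highest there. Of the other 142, 95 were lowest in adult cells and 62 highest in LAP+/OC2+ cells. Many of these reached the rule's count in no adult library and met it through fetal libraries. The rule thus favoured a low adult level, and the 95 are a description.

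**Figure D2:**
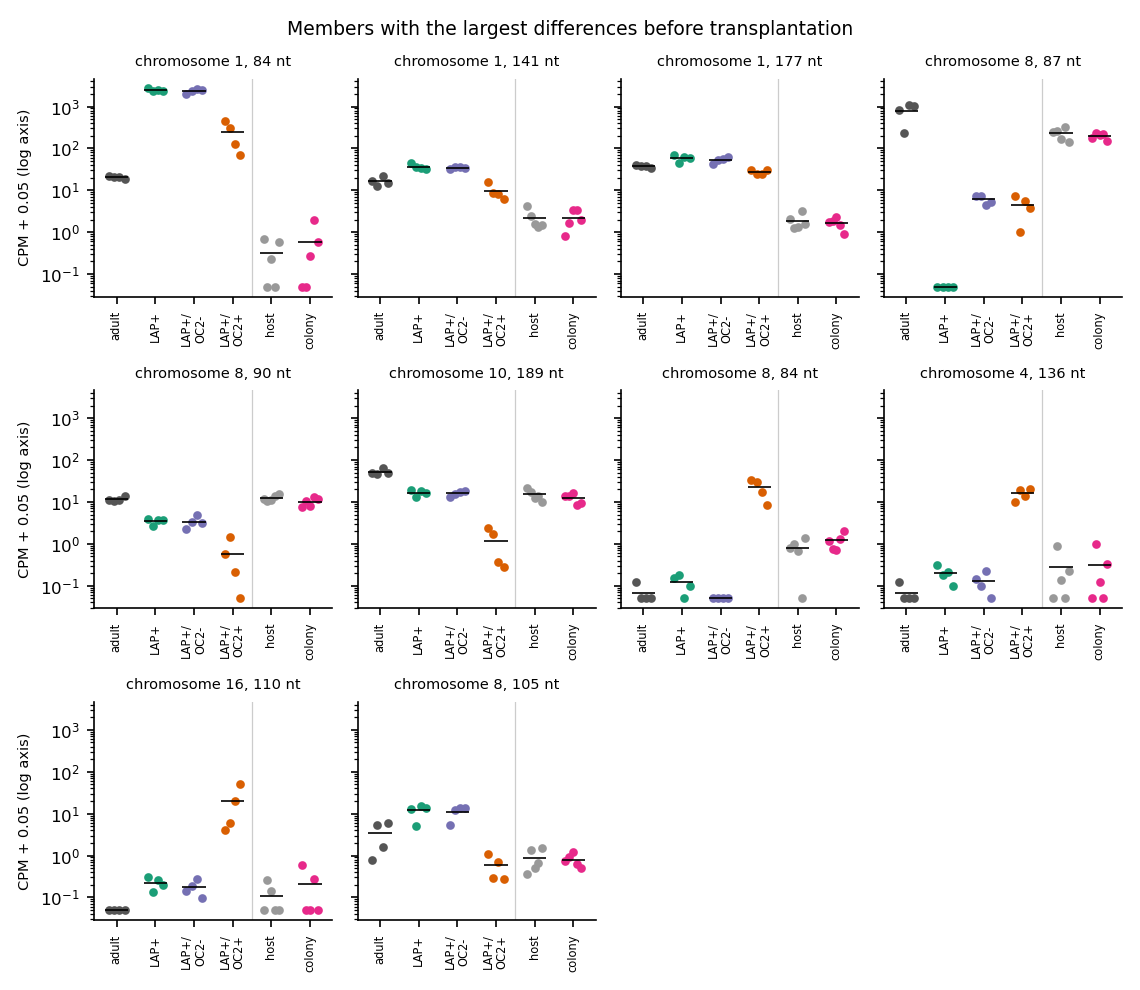
Level in each library (points) and group mean (bars) of the 10 short features with the largest differences before transplantation, by chromosome and length, in CPM + 0.05 on a log axis. The line separates the stages, which were scaled apart. The 84-nt feature of chromosome 1 stands at 2038 to 2707 CPM in LAP+ and LAP+/OC2- cells, and the 87-nt feature of chromosome 8 at 0 in LAP+ cells.

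Apart from the leading chromosome 1 feature, the abundant features called higher in LAP+ cells differed by much less. At chr1:226258417-226258557 (141 nt, plus strand, no spanning gene) adult libraries held 16.6, 12.6, 21.9 and 14.8 CPM and LAP+ libraries 45.7, 35.5, 33.4 and 32.3 CPM. Its groups did not overlap (log2 difference 1.16, SE 0.22), and LAP+/OC2+ cells, at 6.10 to 15.7 CPM, lay below LAP+/OC2- cells at 31.6 to 36.6 CPM. At chr1:266862579-266862842 (177 nt in all, minus strand, no spanning gene) LAP+ libraries ran from 45.7 to 70.4 CPM and adult libraries from 33.8 to 40.6 CPM, a log2 difference of 0.64 (SE 0.14). A 174-nt feature at chr7:141380322-141380495 was close to equal, at 42.1 to 58.1 CPM in LAP+ and 32.2 to 43.0 CPM in adult cells. These groups overlapped, and the call of higher in LAP+ (log2 difference 0.34, SE 0.14) was lost in 9 of 16 other settings.

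The 8 features called lower in LAP+ cells included 2 more abundant ones without a spanning gene. The feature at chr10:38771126-38774449 (ENSRNOG00000007218, 189 nt of exon, minus strand) held 49.9, 45.3, 65.4 and 50.2 CPM in adult libraries, 18.9, 13.4, 17.9 and 15.9 CPM in LAP+ libraries, and 2.32, 1.66, 0.326 and 0.230 CPM in LAP+/OC2+ libraries. LAP+/OC2- libraries lay with the LAP+ ones, at 12.9 to 17.9 CPM. Its log2 differences were -1.67 (SE 0.27) for LAP+ minus adult and -4.09 (SE 0.39) for LAP+/OC2+ minus LAP+/OC2-, and no groups overlapped in either. The feature at chr8:114847380-114847469 (90 nt, plus strand) had the same order, with 10.2 to 13.5 CPM in adult, 2.65 to 3.95 in LAP+, 2.16 to 4.84 in LAP+/OC2- and 0 to 1.42 in LAP+/OC2+ libraries. The 57-nt feature at chr14:46655342-46655398, spanned only by a gene on the other strand, had no stable difference here. LAP+ library 1 held 57.1 CPM while the other LAP+ libraries held 6.81 to 13.4 CPM, below the adult levels of 14.8 to 28.1 CPM. Without that library the log2 difference went from 0.10 to -1.05, which passed the threshold.

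The calls are given here by place and length. Over all features tested, edgeR called 31.7% higher and 28.5% lower in LAP+ cells, and 63.9% had an unadjusted p under 0.05. Most spanned features reached the rule's count in no adult library, so the rule favoured calls of higher among them. Nothing is read from the numbers called in a class. Of 58 tested features inside an intron of a spanning gene, edgeR called 36 higher and 0 lower in LAP+ cells, with a median log2 difference of 2.12. DESeq2 also called 36 higher and 0 lower, and 37 had an unadjusted edgeR p under 0.05, all higher. Of 95 without a spanning gene, 46 were called higher and 8 lower, with a median of 1.24. Of the 11 with more than 1 exon, 3 were called higher and 3 lower, with a median of -0.34. By length, the median was 2.11 for features under 90 nt, 1.06 from 90 to under 120 nt, 2.16 from 120 to under 150 nt and 0.05 from 150 to under 200 nt. No difference between these classes was tested.

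All 6 position clusters were lowest in adult cells before transplantation by group mean. Of their 29 members tested, 28 were called higher in LAP+ than in adult cells, as were 31.7% of all features tested. Most cluster members reached the rule's count in no adult library. Their low adult level was thus favoured by the rule and is given as a description. The largest, 9 features at chr13:78852741-78855688 with no spanning gene, summed to 2.71 to 4.52 CPM in adult libraries, 24.2 to 31.1 in LAP+ and 23.9 to 38.6 in LAP+/OC2- libraries. Its LAP+/OC2+ libraries held 24.0, 4.75, 34.7 and 42.7 CPM, so that library 2 lay apart. All 9 were called higher in LAP+ than in adult cells (median log2 difference 2.85). Between the OC2 sorts edgeR called 0 of 9, DESeq2 0, and 0 had an unadjusted p under 0.05. The leading one, at chr13:78853437-78853518 (82 nt), had 0.406 to 0.923 CPM in adult and 5.01 to 7.99 CPM in LAP+ libraries. All 9 lie within 2948 nt.

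The 7 features at chr1:224921637-224923957, also without a spanning gene, summed to 1.85 to 3.60 CPM in adult, 13.5 to 22.5 in LAP+, 17.3 to 25.0 in LAP+/OC2- and 21.8 to 43.4 in LAP+/OC2+ libraries. All 7 were called higher in LAP+ than in adult cells, with a median log2 difference of 2.77. Only 1 of the 7 was called between the OC2 sorts: chr1:224923832-224923957 (126 nt) held 15.5, 17.6, 22.3 and 21.9 CPM in LAP+/OC2+ and 3.99 to 5.35 CPM in LAP+/OC2- libraries (log2 difference 2.02, SE 0.19). The cluster was therefore not uniform, since the median of its 7 members was -0.09 in that comparison.

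The chromosome 8 cluster at chr8:13867302-13878073 held 5 features in introns of 2 spanning genes. It summed to 0.329 to 0.982 CPM in adult and 4.36 to 5.77 CPM in LAP+ libraries, and all 4 members tested were called higher in LAP+ cells. LAP+/OC2+ libraries reached 21.7 to 33.9 CPM, against 3.76 to 4.05 CPM in LAP+/OC2- libraries. Most of that came from chr8:13877750-13877819 (70 nt), which held 20.1, 26.3, 27.6 and 18.2 CPM in LAP+/OC2+ and 0.691 to 1.01 CPM in LAP+/OC2- libraries, a log2 difference of 4.89 (SE 0.36). The gene that spans it, at chr8:13871213-13909188, was also higher there, by a log2 difference of 2.01 (SE 0.31). Another member of the same cluster, at chr8:13867302-13867429, was called lower in LAP+/OC2+ cells (log2 difference -2.21), and it was singled out after its values were seen.

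Of the 3 smaller clusters, those at chr10:56272187-56274238 and chr11:81375246-81376677 lay in introns of 1 gene each. The former had all 3 features called higher in LAP+ cells with a median log2 difference of 3.62, while its spanning gene differed by 1.02 (SE 0.15). The latter had all 3 called higher with a median of 3.06, while its spanning gene differed by -0.07 (SE 0.22). The cluster at chr10:48927721-48929237, with no spanning gene, had 2 of 3 called higher and a median of 2.15. Levels in these clusters before transplantation were low, with sums of at most 4.84 CPM in any library.

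**Figure D3:**
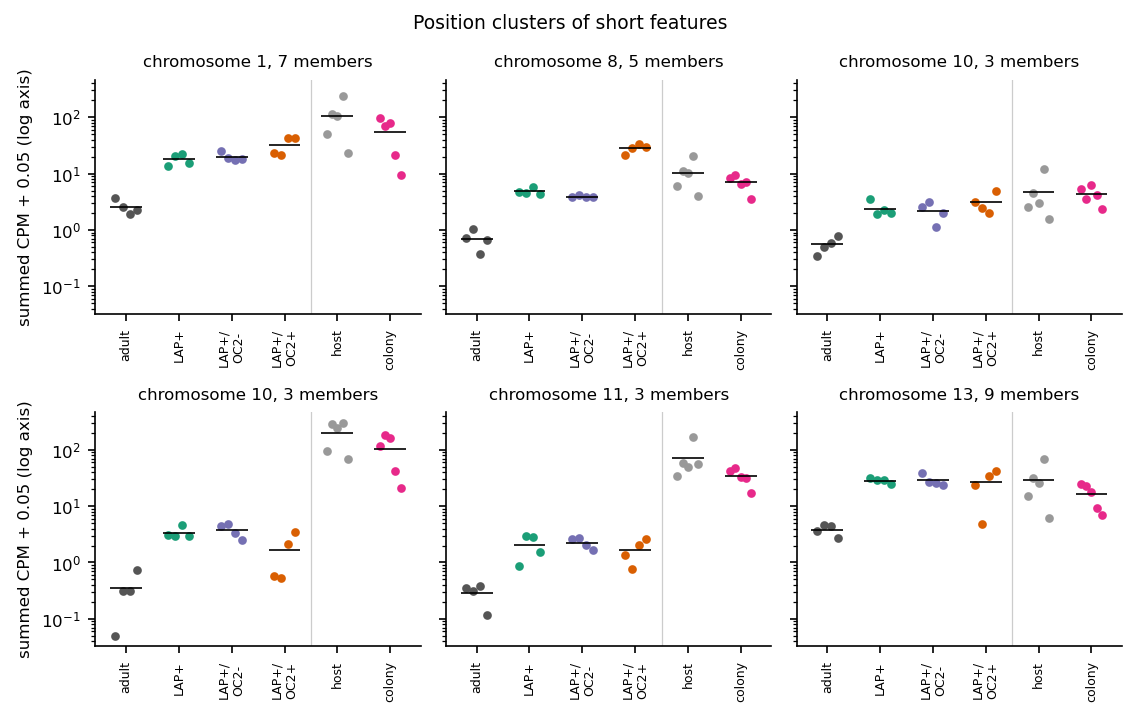
Summed level of the members of each of the 6 position clusters in each library (points) with the group mean (bars), in CPM + 0.05 on a log axis, by chromosome and number of members. By group mean, adult hepatocytes are lowest before transplantation in all 6, an order that the count rule favoured. A line separates the stages, which were scaled apart.

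Because many short RNAs are cut from introns, each spanned feature was set beside its spanning gene. For LAP+ minus adult, 59 pairs on 48 spanning genes could be compared. The sign was the same in 46 of 59, and the short feature had the larger log2 difference in 53 of 59. Most spanned features reached the rule's count in no adult library, whereas the spanning genes were not chosen by level. A larger difference of the short feature was therefore favoured by the count rule, and these numbers are a description. The median was 2.07 for the short features and 0.68 for the spanning genes. Across pairs, Pearson's r was 0.60 and Spearman's rho 0.51, a description over 59 pairs that share libraries and partly share spanning genes. Among these pairs edgeR called 36 short features higher and 0 lower, and the spanning gene higher in 34 and lower in 5. In 28 pairs both were called, 27 in the same direction. The exception, at chr11:83915892-83915966, was called higher (1.77) inside a gene called lower (-0.52), and it was singled out after its values were seen. In 8 pairs the short feature was called and the spanning gene was not.

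Per nucleotide, the short features stood well below the exons of the genes that span them in cells before transplantation. The median ratio was 1.05% to 1.53% in adult libraries, 7.0% to 8.19% in LAP+, 5.16% to 8.18% in LAP+/OC2- and 1.80% to 9.50% in LAP+/OC2+ libraries. Adult libraries were below all LAP+ and LAP+/OC2- libraries, and the LAP+/OC2+ libraries were split, with 2.53%, 1.80%, 9.50% and 9.27% in libraries 1 to 4. The count rule favoured features with low adult levels, so the place of the adult libraries is a description. In captured tissue the median ratio was 26.5% to 49.8% in host liver and 23.0% to 41.6% in colonies, which overlapped. Kit and material differ between the stages, so these ratios cannot be set against those before transplantation.

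**Figure D4:**
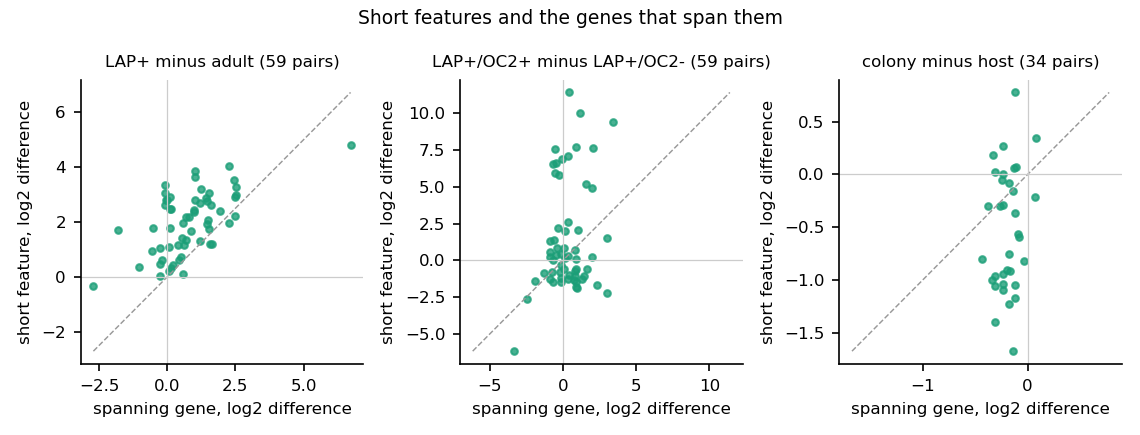
Fitted log2 difference of each short feature (vertical axis) against that of the gene spanning it on the same strand (horizontal axis), 1 point a pair, for LAP+ minus adult (59 pairs), LAP+/OC2+ minus LAP+/OC2- (59 pairs) and colony minus host (34 pairs). The dashed line marks equal differences. In the first panel 53 of 59 points lie above it, which the count rule favoured, and in the second 30 of 59.

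Between the OC2 sorts the short features went both ways. Of 154 tested, edgeR called 52 higher and 32 lower in LAP+/OC2+ than in LAP+/OC2- cells. Over all 13818 features 67.5% were called, 30.8% higher and 36.6% lower, and nothing is read from the members' share because the count rule used these libraries. The groups did not overlap for 43 of 154 that were higher (26.4% of all features) and 28 that were lower (32.9% of all). The median log2 difference of the members was 0.18, against -0.18 over all features, and it went to -0.29 without LAP+/OC2+ library 4. Of the 161, 19 met the count rule through LAP+/OC2+ libraries alone and had to be higher there (median 7.06). Among the 135 tested that met it through several groups, 33 were called higher and 32 lower, with a median of -0.09. Mitochondrial share and nuclear depth differ between the same groups, and their part in these differences was not tested.

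The 3 features named on the higher side are among the 19 that met the count rule through LAP+/OC2+ libraries alone. Their low level elsewhere and the direction of their differences were set by that choice, which also favoured large differences. Their values are given as a description. At chr8:79679458-79679541 (ENSRNOG00000056387, 84 nt, plus strand) the LAP+/OC2+ libraries held 32.5, 30.6, 17.5 and 8.51 CPM and the 4 LAP+/OC2- libraries 0, at least 68.3-fold higher at 3 counts per library. Its spanning gene at chr8:79660657-79692039 differed by a log2 of 0.38 (SE 0.20), which was not called. At chr4:118170893-118171028 (136 nt, plus strand) the levels were 9.80, 19.7, 14.2 and 20.6 CPM against 0 to 0.169 CPM (log2 difference 7.61, SE 0.51). There the spanning gene at chr4:118167294-118174842 was called higher too, by 2.05 (SE 0.25). At chr16:73832773-73832882 (110 nt, minus strand, no spanning gene) they were 4.13, 5.93, 19.7 and 50.0 CPM against 0.0494 to 0.225 CPM (log2 difference 7.28, SE 0.84). LAP+/OC2+ libraries 1 and 2 were lowest in the chromosome 16 feature and highest in the chromosome 8 one. Adult and LAP+ libraries were at 0.256 CPM or less in each of these features.

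The 57-nt feature on chromosome 14 was more abundant and also higher in LAP+/OC2+ cells, at 162, 145, 103 and 76.8 CPM against 8.49 to 14.1 CPM in LAP+/OC2- cells (log2 difference 3.58, SE 0.56). On the lower side, after the features on chromosomes 1 and 10 already given, came chr8:81752705-81754392 (105 nt of exon, plus strand, no spanning gene). It held 1.03, 0.237, 0.652 and 0.230 CPM in LAP+/OC2+ libraries and 5.30, 11.9, 13.9 and 13.4 CPM in LAP+/OC2- libraries, without overlap (log2 difference -4.48, SE 0.74). LAP+ libraries, at 4.99 to 15.4 CPM, overlapped with the LAP+/OC2- ones. For spanned features, the sign matched that of the spanning gene in 29 of 59 pairs, and of 25 pairs in which both were called 13 went the same way and 12 opposite ways. Of the 59, 12 hold a feature that met the count rule through LAP+/OC2+ libraries alone, whose sign the rule fixed. Among the other 47 pairs the sign matched in 22, and of 16 pairs with both called 7 went the same way and 9 opposite ways. Pearson's r across these pairs was 0.24 and Spearman's rho 0.10, given as a description.

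After transplantation, a single one of these features passed the test between colonies and host liver. These libraries were not used to choose the members, so the test stands apart from the rule. Only 81 of the 161 passed the filter on low counts in captured tissue, and the other 80 were not tested. With the filter set on the blocked design, chosen after seeing the data, 105 passed. With the animal as a block, edgeR called 1 of 81 higher in colonies and 0 lower at an adjusted p under 0.05. An unadjusted edgeR p under 0.05 was found for 10 of 81 (12.3%), against 20.3% of all features tested. DESeq2 called 1 higher and 4 lower, and its share over all features is not given here. Over all 18632 features tested, 0.0322% were called by edgeR, 0.0215% higher and 0.0107% lower. The members' share of 1.23% rests on a single feature. The libraries did not overlap for 1 of 81, higher in colonies (2.25% of all features), and for 0 of 81 lower (0.462% of all). In all 5 animals, 2 of 81 were higher in colonies (8.87% of all features) and 3 lower (6.26% of all). The median log2 difference of the members was -0.37, with 60 of 81 below 0, against 0.05 over all features. It was -0.20 without animal 248 and -0.57 without animal 246.

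The direction was not the same in each animal. The median within-animal log2 difference, on CPM + 1, was 0.26 in animal 242 and -0.17, -0.17, -0.90 and -0.44 in animals 243, 246, 248 and 249. Summed over all 161, the features took 0.161% ± 0.049 (SD, n = 5) of nuclear counts in host liver and 0.135% ± 0.018 (SD, n = 5) in colonies, which overlapped. The host library of animal 248 was highest, at 0.239%, and the other 9 ran from 0.103% to 0.162%. The chromosome 13 cluster held 15.2, 31.1, 25.7, 69.0 and 6.04 CPM in host liver of animals 242, 243, 246, 248 and 249, and 24.2, 22.9, 18.0, 9.14 and 6.84 CPM in their colonies. It was thus higher in the colony in animals 242 and 249 and lower in the other 3.

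The called feature lies at chrX:74325012-74325079 on the minus strand (ENSRNOG00000055225, 68 nt, 1 exon). Host liver of animals 242, 243, 246, 248 and 249 held 0.425, 0, 0.447, 0 and 0 CPM. Their colonies held 3.99, 1.08, 8.10, 3.95 and 4.14 CPM. Every colony library was above every host library, and the difference ran the same way in 5 of 5 animals (log2 difference 4.83, SE 0.72, edgeR adjusted p = 0.0136). The call was lost without the animal as a block (adjusted p = 0.158), without animal 242 (0.0758) and without animal 249 (0.338), while the log2 difference stayed between 4.45 and 5.57 in all settings run.

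No gene spans the X feature on its own strand, but 2 longer features lie around it. One spans it on the plus strand at chrX:74304292-74345507, at 4.26 to 6.26 CPM in host liver and 5.41, 9.70, 40.2, 28.9 and 15.2 CPM in colonies (log2 difference 1.58, SE 0.37, edgeR adjusted p = 0.089). The other lies beside it on the minus strand at chrX:74333329-74337975, at 0.199 to 4.29 CPM in host liver and 5.41, 17.4, 77.6, 58.7 and 34.0 CPM in colonies (log2 difference 3.57, SE 0.97, edgeR adjusted p = 0.18). Neither passed the test, and both were chosen after their values were seen. Another longer feature, farther off at chrX:74295668-74296070 on the plus strand, held 1.02 CPM or less in every captured library and was not tested. The sources used here do not state whether reads were assigned by strand. Before transplantation the X feature had 6.09 CPM in adult library 2 and 0 to 0.0676 CPM in the other adult libraries, and 1.03 to 11.6 CPM in the 12 fetal libraries. Adult library 2 was also the one with 57 Y-linked counts, whereas host liver held 1247 to 2353 and colonies 1392 to 1836. The part that the animals' sex has in this difference was not tested.

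**Figure D5:**
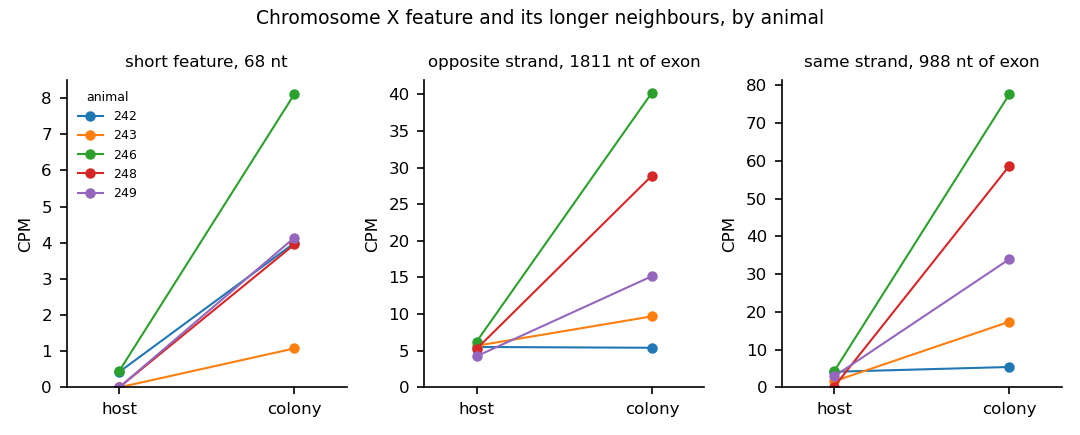
Level in CPM of the 68-nt chromosome X feature and of 2 longer neighbours in host liver and colony tissue, 1 line an animal, each panel with its own axis from 0. The short feature is higher in the colony in all 5 animals, at 1.08 to 8.10 against 0 to 0.447 CPM, whereas in animal 242 the neighbours stand at 5.52 and 4.14 CPM in host liver and both at 5.41 CPM in the colony.

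The other features with the smallest p did not pass the test. On the higher side, the 57-nt chromosome 14 feature held 61.8, 47.3, 83.9, 78.4 and 37.6 CPM in colonies and 34.2, 20, 19.6, 109 and 23.7 CPM in host liver (log2 difference 0.86, SE 0.39, edgeR adjusted p = 0.30). It was higher in colonies in 4 of 5 animals, the exception being animal 248. Without that animal the log2 difference was 1.21 and passed the test (edgeR adjusted p = 6.6e-04). The 90-nt feature at chr7:137798198-137798287 was at 1.72 CPM or less in every captured library (log2 difference 1.88, SE 1.04, edgeR adjusted p = 0.31).

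On the lower side, the 81-nt feature at chr2:260115160-260115240 held 15.8, 19.7, 20.6, 38.3 and 10.1 CPM in host liver and 10.9, 14.9, 11.7, 6.77 and 4.77 CPM in colonies, lower in 5 of 5 animals (log2 difference -1.04, SE 0.24, edgeR adjusted p = 0.077). The gene that spans it differed by -0.23 (SE 0.15). The 57-nt feature at chr6:30641117-30641173 was among the most abundant in captured tissue, at 127 to 276 CPM in host liver and 108 to 154 CPM in colonies, groups that overlapped (log2 difference -0.49, SE 0.14, edgeR adjusted p = 0.10). The 68-nt feature at chr5:16706684-16706751 held 4.03, 6.75, 7.25, 15.6 and 1.42 CPM in host liver and 3.58, 3.31, 3.18, 0.790 and 0.172 CPM in colonies (log2 difference -1.68, SE 0.48, edgeR adjusted p = 0.10). Each of these 3 passed the test in at least 2 other settings. In the 5 clusters with 2 or more members tested, the median differences lay between -0.97 and -0.08, with 0 of 16 members in clusters called by edgeR or DESeq2 and 1 at an unadjusted p under 0.05.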

How the data were processed

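Each deposited table holds raw counts for every feature, with exon coordinates and lengths, per the file headers. The tools named are featureCounts from Subread 1.5.2, STAR 2.5.2b, Trimmomatic 0.36 and bcl2fastq 2.17, per the submitters' processing notes. The sources used here do not give the genome build, annotation release, strand setting or handling of reads that map to several places, so overlapping or antisense features and near-identical copies may share reads. Cells before transplantation and captured tissue were prepared with different library kits, per the labels' protocols, and no level was compared across the stages.

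The test over all features was that of edgeR 4.0.16 under R 4.3.3 (filterByExpr on the groups, scaling by TMM, robust quasi-likelihood test, Benjamini-Hochberg adjustment over all features tested, threshold 0.05). One fit held the 16 libraries before transplantation and another the 10 after it. In the latter the animal was a block, because the labels give host and colony the same 5 animals. Deviations of same-animal libraries correlated between -0.25 and 0.38. CPM values use TMM-scaled library sizes that include mitochondrial counts, except those that 10 counts stand for, which use unscaled nuclear counts. Summed shares use nuclear counts. A lower bound takes 3 counts per library and unscaled totals; it covers counting error only. All 44 replicate pairs differed by more than sampling noise, with chi-square values of 5.21 to 290 per degree of freedom. The code was tested on simulated data with 200 features changed 2-fold. It recovered 48.5% of them for LAP+ minus adult, 42% between the OC2 sorts and 31.5% for colony minus host. False calls made up 4.90%, 4.55% and 8.70% of the calls, in the same order. Tables were made in Python 3.11.15 with pandas 2.3.3.

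A spanning gene is a feature of at least 200 nt whose extent holds the short feature on the same strand. Features were named by rule: the 5 highest before transplantation; for both comparisons there, the 3 largest differences each way without overlap and with a mean of 10 CPM or more in the higher group; after transplantation, the 3 smallest p each way; and the highest of each of 5 clusters. The members and lists were chosen with earlier results of these data known. Alternatives were RLE size factors, other filters on low counts, DESeq2 1.42.0, nuclear counts only, fits with or without the replicate block, fits on 2 groups, and leaving out each library or animal. Cell type marker lists could not be used without gene names.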

Additional observations from a re-analysis of the deposited data

Results flagged for a closer look

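Among 144 sets of values, each 1 named feature in 1 group, 11 (7.64%) held a library that stood apart from the rest. The criterion's nominal rate by chance, about 1 in 20, was not checked on these data. The 57-nt feature of chromosome 14 accounted for 3 of them: LAP+ library 1 at 57.1 CPM (others 6.81 to 13.4), LAP+/OC2- library 5 at 14.1 CPM (others 8.49 to 9.17) and host liver of animal 248 at 109 CPM (others 19.6 to 34.2). LAP+ library 1 was also high for the 57-nt feature of chromosome 6, at 1.95 CPM against 0.250 to 0.477. Adult library 2 stood apart for the chromosome X feature, at 6.09 CPM against at most 0.0676.

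The leading chromosome 13 cluster feature was at 0 CPM in LAP+/OC2+ library 2, against 6.52 to 6.97 CPM in the other 3 libraries, where a sum of the whole cluster was also lowest. The chromosome 8 cluster feature of 70 nt had 1.01 CPM in LAP+/OC2- library 4 (others 0.691 to 0.704). The remaining values rest on few counts. They are the chromosome 1 feature of 84 nt in the colony of animal 248 (1.92 CPM, 17 counts), the chromosome 4 feature of 136 nt in host liver of animal 243 (0.852 CPM, 12 counts), and 0.0750 CPM, which is 1 count, in adult library 1 for both the chromosome 4 feature and the chromosome 8 feature of 84 nt.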

How the results depend on the processing

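Counts of members called before transplantation held within 1.5 times: 62 to 93 for LAP+ minus adult (86 to 93 without 1 library) and 69 to 88 between the OC2 sorts (82 to 88 without 1 library). Replicate numbers there were not treated as pairs, and a replicate block gave 90 and 75 calls. Same-numbered deviations correlated between -0.17 and 0.06. The same check gave -0.25 to 0.38 for libraries of the same animal after transplantation, so it cannot decide whether the numbers pair samples. For colony minus host, with 1 call, the count was 11 with no filter on low counts, 5 with DESeq2, 2 with the filter set on the blocked design (chosen after seeing the data), 0 without the replicate block (10 at an unadjusted p under 0.05), and 0 to 5 without 1 animal. It was 0 without animal 242 (22 unadjusted) or 249 (6 unadjusted), 5 without 246 and 2 without 248. The shares of all features called in these settings, before or after transplantation, are not given here. Nothing is therefore read from the size of these counts.

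The summed level rests on 1 or 2 features. LAP+ minus adult was 1.85 on the log2 scale (1.55 to 2.02 without 1 library), -0.77 without the highest member and 0.88 without the 2 highest. LAP+/OC2+ minus LAP+/OC2- was -1.10 (-1.25 to -0.99 without 1 library), -2.55 as a share of all counts, 1.16 without the highest member and 1.17 without the 2 highest. Leaving out 2 members was chosen after seeing the data. Colony minus host was -0.22 (-0.39 to -0.03 without 1 animal). The chromosome 14 feature of 57 nt changed sign for LAP+ minus adult, from 0.10 to -0.26 with the replicate block, -0.03 without adult library 4 and -1.05 without LAP+ library 1 (-1.05 to 0.40 without 1 library). The cause was not tested. Of 349 settings run for single named features, 323 kept the direction and the call. Most members are low: 10 counts stand for 0.623 to 5.21 CPM of unscaled nuclear counts before transplantation, which is not the scale of the levels in CPM. In captured tissue, 80 members were left out by the main filter on low counts, and 105 were tested with the filter on the blocked design. Nothing is said of differences in members left untested.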

Other observations

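Among short nuclear features under the count rule, 255 passed the filter on low counts in captured tissue. Their median colony minus host log2 difference was -0.12, with 107 of 255 above 0, and edgeR called 1 of them. The 81 tested members had a median of -0.37. No test compared the 2 sets.

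Of the 161 members, 34 had at least 10 counts in all 4 adult libraries, 85 in all 4 LAP+ libraries, 80 in all 4 LAP+/OC2- libraries and 50 in all 4 LAP+/OC2+ libraries. Only 15 reached it in all 16.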
